A study of Homo sapiens with 6 samples.

Results

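Yes-associated protein (YAP1) and its partners were represented in the deposited table by 10 genes, chosen by symbol from 23228 rows: the coactivators YAP1 and WWTR1 (TAZ), the DNA-binding factor TEAD1, the target genes CTGF, CYR61, ANKRD1, AMOTL2 and THBS1, and the regulators LATS2 and AJUBA. AJUBA is listed there under its older symbol JUB, and CTGF and CYR61 are older symbols of CCN2 and CCN1. The measurement was RNA sequencing of poly(A) RNA from SaOS-2 cells, a human osteosarcoma line that the study describes as null for RB. All cells carried a vector in which doxycycline, a tetracycline antibiotic, switches on the cell cycle inhibitor p21. The p21 OFF group held 3 libraries of untreated cells, and the p21 ON group held 3 libraries of cells given doxycycline at 1 µg/ml, for 24 h by the sample labels. No library of cells given the drug without the vector was analysed here, so effects of doxycycline and of p21 cannot be told apart. The study used these cells to ask whether cell cycle genes were deregulated in a cancer line that lacks RB. The comparison here asks whether transcripts of the YAP/TEAD axis differed between the groups.

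YAP1 and WWTR1 are transcriptional coactivators that bind no DNA themselves and act through the TEAD factors. The Hippo kinases LATS1 and LATS2 phosphorylate both coactivators, which keeps them out of the nucleus, and cell contact, cell shape and tension on the actin cytoskeleton set how active the kinases are. CTGF, CYR61 and ANKRD1 are the usual transcript readouts of YAP/TEAD activity, while LATS2 and AMOTL2 are targets that in turn restrain YAP. Most of this control acts on the proteins, which were not measured.

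TEAD factors bind the letters GGAATG, which read CATTCC on the other strand. The 250 bases before the annotated start of a gene were searched for them on both strands, in RefSeq promoter windows from a table for GRCh38.p14 that were located in GRCh37 by an exact match. The table held 11 windows for 8 of the 10 genes, since WWTR1, AMOTL2 and AJUBA had more than one start, and none for CYR61 and TEAD1. At least 1 match stood in 6 of the 11 windows, each of a different gene, against 11.9% of 35116 windows over all genes. CTGF held 3 matches, a number reached by 0.0826% of all windows, and ANKRD1 held 2, a number reached by 0.94%. The genes were chosen as members or targets of this pathway, so shares above those of all windows may come from that choice. The windows of CTGF and ANKRD1 are shown because these readout genes had the most matches, and that of LATS2 because it had no match but passed the test below. Each runs 5′ to 3′ and ends at the base before the start, with the TEAD letters in capitals. All 3 lie on the minus strand of GRCh37, at chr6:132272513-132272762 for CTGF, chr10:92680845-92681094 for ANKRD1 and chr13:21635726-21635975 for LATS2.
CTGF: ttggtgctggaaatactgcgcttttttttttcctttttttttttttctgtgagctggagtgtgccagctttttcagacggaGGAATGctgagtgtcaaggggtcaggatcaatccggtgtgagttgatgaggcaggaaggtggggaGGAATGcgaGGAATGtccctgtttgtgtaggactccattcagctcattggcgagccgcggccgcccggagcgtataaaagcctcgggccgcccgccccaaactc
ANKRD1: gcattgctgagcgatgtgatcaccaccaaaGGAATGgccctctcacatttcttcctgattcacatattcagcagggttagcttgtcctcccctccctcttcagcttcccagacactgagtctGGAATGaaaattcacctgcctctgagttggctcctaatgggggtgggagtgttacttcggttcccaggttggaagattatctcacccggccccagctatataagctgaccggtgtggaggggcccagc
LATS2: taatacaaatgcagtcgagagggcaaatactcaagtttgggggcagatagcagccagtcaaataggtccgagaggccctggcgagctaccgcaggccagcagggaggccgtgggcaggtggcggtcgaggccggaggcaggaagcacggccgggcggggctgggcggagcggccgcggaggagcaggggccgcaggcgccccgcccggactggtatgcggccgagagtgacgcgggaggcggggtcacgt

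The matches in CTGF began 169, 104 and 95 bases before the start, and those in ANKRD1 220 and 128 bases before it. Single matches stood 162 bases before the start of YAP1, 46 before that of THBS1, and 69 and 59 before the second listed starts of AMOTL2 and AJUBA. The AP-1 letters TGANTCA, which read the same on both strands, occurred in 1 member window, that of ANKRD1, 195 bases before the start and clear of the TEAD matches, against 6.57% of all windows. A match is a run of letters and not a measured binding site, and a window without one speaks only for these 250 bases.

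**Figure D1:**
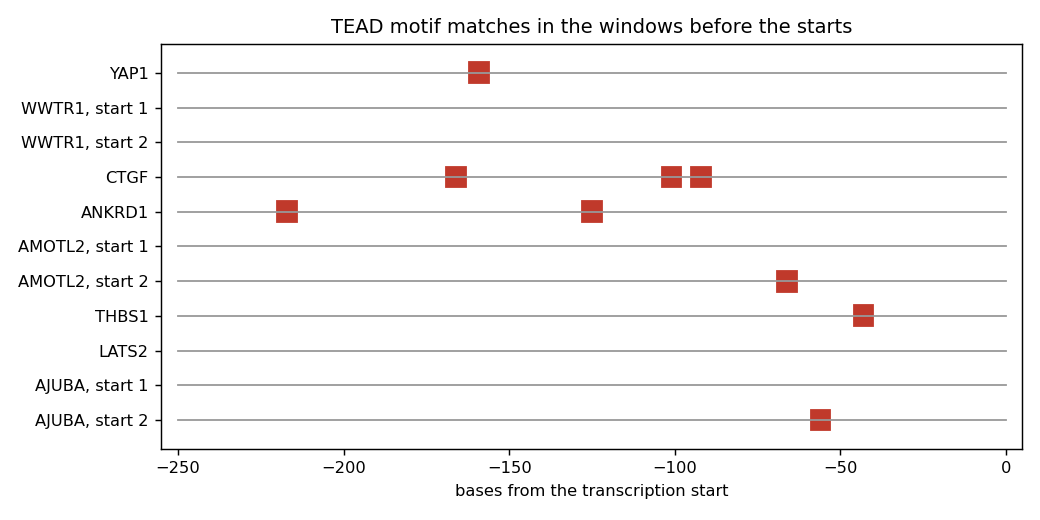
Position of the TEAD letters in the 11 promoter windows of 8 YAP/TEAD genes. The horizontal axis gives the distance from the annotated start in bases and each row is 1 window. CTGF carried 3 matches, ANKRD1 2, and LATS2 and both windows of WWTR1 none.

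The label of the vector was checked first. CDKN1A, which encodes p21, had 1257, 1187 and 1355 normalized counts in p21 OFF against 40470.4, 43863 and 46739 in p21 ON, so every library matched its group. Markers of bone-forming cells were abundant: SP7, an osteoblast transcription factor, had 5212 to 5874 normalized counts, RUNX2 3028 to 3746, and ALPL (alkaline phosphatase) 35363 to 38901. Other osteoblast genes were near 0, with COL1A2 at 1.56 to 4.87, SPP1 at 0 to 2.96 and BGLAP at 0 in all 6 libraries. RB1 had 497 to 697 normalized counts, so reads from this gene were present in these cells. A count per gene does not tell an intact transcript from a shortened one, and RB protein was not measured here. The counts therefore do not bear on the study's description of the line as null for RB. Among 4 epithelial, 4 blood and 3 endothelial markers, the genes CDH1, KRT14, CD3E and CDH5 were at 0 to 3.91 normalized counts, and PTPRC was at 3.66 to 10.5, PECAM1 at 8.87 to 16.3 and KRT5 at 21.4 to 31.4. EPCAM had 292 to 374 and CD68 789 to 933. The endothelial gene VWF, which had 51.5, 55.5 and 54.0 normalized counts in p21 OFF and 79.2, 62.1 and 90.3 in p21 ON, was the 1 called of the 5 markers that could be tested, beside 10.5% of all genes called higher (log2 fold change 0.50, SE 0.16, limma adjusted p = 0.0333). It did not pass by DESeq2 (adjusted p = 0.0673) and held in 2 of 6 fits with a library left out. The 3 endothelial markers summed to 69.1, 68.7 and 62.8 in p21 OFF and 95.5, 73.1 and 105 in p21 ON, most of it VWF. PECAM1 averaged 12.6 in p21 OFF and 13.5 in p21 ON (limma adjusted p = 0.823), and CDH5 0.68 and 0.39, too low to test. The part of these markers in the results was not tested. In bulk RNA, fewer cells of a type and less RNA per cell cannot be told apart.

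Reads assigned to genes numbered 12795490, 20914151 and 21975045 in p21 OFF, and 13440402, 12918390 and 16630552 in p21 ON. Library 1 of p21 OFF, the shallowest of the 6, stood apart from its group: its chi-square per gene was 8.5 and 9.26 against the other p21 OFF libraries, while all other pairs within a group had 2.71 to 3.98. The labels do not say whether libraries came from separate cultures, so p-values measure the spread between these libraries, which may be technical. Values below are normalized counts, reads divided by a size factor of each library, and log2 fold changes are p21 ON minus p21 OFF on log2(normalized count + 1), which understates changes of weakly expressed genes.

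Of the 10 genes, all of which passed the filter on low values, ANKRD1 and LATS2 were higher in p21 ON and none was lower. ANKRD1 was 1.35-fold and LATS2 1.16-fold higher by the ratio of group means. The coactivators YAP1 and WWTR1 and the readout genes CTGF and CYR61 did not pass the test. Over all 13255 genes tested, 10.5% were called higher and 12.7% lower at an adjusted p under 0.05 (limma, Benjamini-Hochberg), so 2 of 10 called higher and 0 of 10 called lower stand beside those shares. At an unadjusted p under 0.05, 3 members were higher and 0 lower, beside 2354 and 2527 of the 13255 genes, and edgeR and DESeq2 on the recovered reads also called 0 lower. All 3 p21 ON libraries lay above all 3 p21 OFF libraries for ANKRD1, LATS2 and TEAD1, against 19.1% of genes tested, and below them for 0 members, against 21.3%. The median log2 fold change was 0.05 over the members and 0.0056 over all genes tested. Without p21 OFF library 1 the members' median was 0.01, with 5 values above 0 and 5 below. Higher calls made up 45.3% of all calls, and 63% of them where libraries were scaled by their size alone, under which TEAD1 was also called and the members' count was 3.

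**Figure D2:**
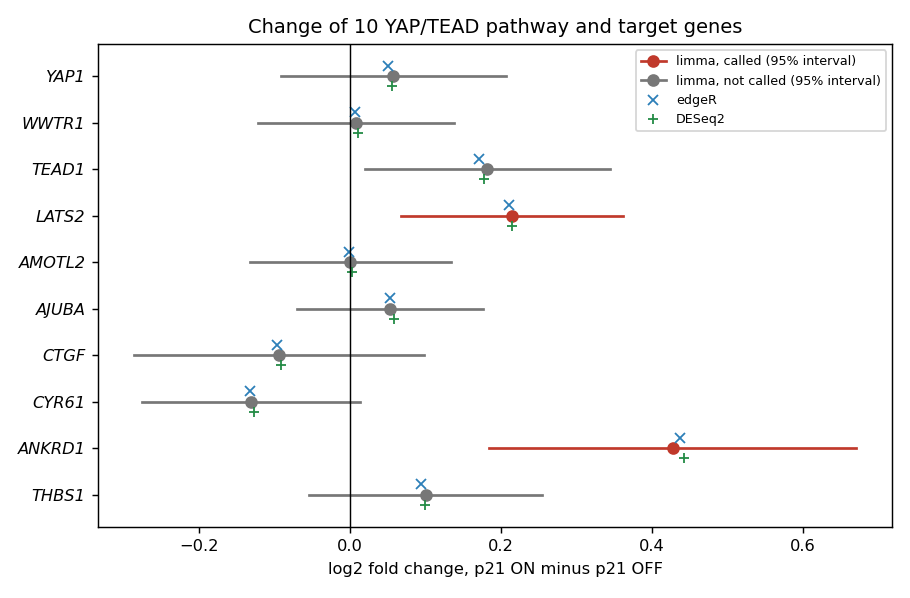
Change of the 10 genes between p21 ON and p21 OFF (log2 fold change, horizontal axis) with the 95% interval from limma, and the estimates from edgeR and DESeq2 as crosses and plus signs. The intervals of ANKRD1, LATS2 and TEAD1 lie above 0, and only ANKRD1 and LATS2 passed the adjusted threshold.

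ANKRD1 encodes an ankyrin repeat protein found in the nucleus and the sarcomere of muscle, and is among the most used YAP target genes. It had 246, 259 and 208 normalized counts in the p21 OFF libraries, 237 ± 26.5 (mean ± SD, n = 3). In the p21 ON libraries it had 285, 384 and 295, or 321 ± 54.4 (SD, n = 3). The groups did not overlap, and p21 ON library 2 was the highest of the 6. The log2 fold change was 0.43 (SE 0.12, 95% interval 0.18 to 0.67) with an adjusted p of 0.0131 by limma with Benjamini-Hochberg adjustment, and edgeR and DESeq2 gave adjusted p-values of 0.0115 and 0.00852. An exact two-sided permutation test of this gene alone gave p = 0.1, the smallest that 3 libraries against 3 allow. The call rested on p21 ON library 2: without it the log2 fold change was 0.29 and the limma adjusted p 0.082, while it passed with each of the other 5 libraries left out. Without p21 OFF library 1 the change was 0.46 (limma adjusted p = 0.00247). The counts came from 196 to 331 reads per library, and no other annotated exon overlaps ANKRD1 (chr10:92671853-92680844, minus strand). Its family member ANKRD23 had a log2 fold change of 0.14 (limma adjusted p = 0.337), and ANKRD2 was too low to test.

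LATS2 is a kinase of the Hippo core that phosphorylates YAP and TAZ, and is itself a target of both. Its p21 OFF libraries had 738, 842 and 784 normalized counts (788 ± 51.9, SD, n = 3). Its p21 ON libraries had 896, 937 and 907 (914 ± 20.98, SD, n = 3). The groups did not overlap, and p21 ON varied less than p21 OFF. The difference was 0.21 on the log2 scale (SE 0.07, 95% interval 0.07 to 0.36, limma adjusted p = 0.0338), with adjusted p-values of 0.0328 by edgeR and 0.0442 by DESeq2 and an exact permutation p of 0.1. Leaving out single libraries kept the direction, with log2 fold changes of 0.17 to 0.26, but the call held only without p21 OFF library 2. Without p21 OFF library 1 it was 0.17 (limma adjusted p = 0.0655). With the replicate number as a block the call was also lost (limma adjusted p = 0.0626). LATS2 lies at chr13:21547175-21635725 on the minus strand, with no overlapping exon of another gene.

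TEAD1, a DNA-binding partner of YAP, had 1629, 2025 and 2014 normalized counts in p21 OFF and 2198, 2169 and 2033 in p21 ON. The groups did not overlap, but the lowest p21 ON library lay just above the highest p21 OFF library, and the distance between the means came mostly from p21 OFF library 1. The log2 fold change was 0.18 (SE 0.08, 95% interval 0.02 to 0.34), which did not pass (limma adjusted p = 0.0959, exact permutation p = 0.1). Without p21 OFF library 1 it was 0.08 (limma adjusted p = 0.348), and without p21 OFF library 3 it was 0.23 and passed (limma adjusted p = 0.0464).

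**Figure D3:**
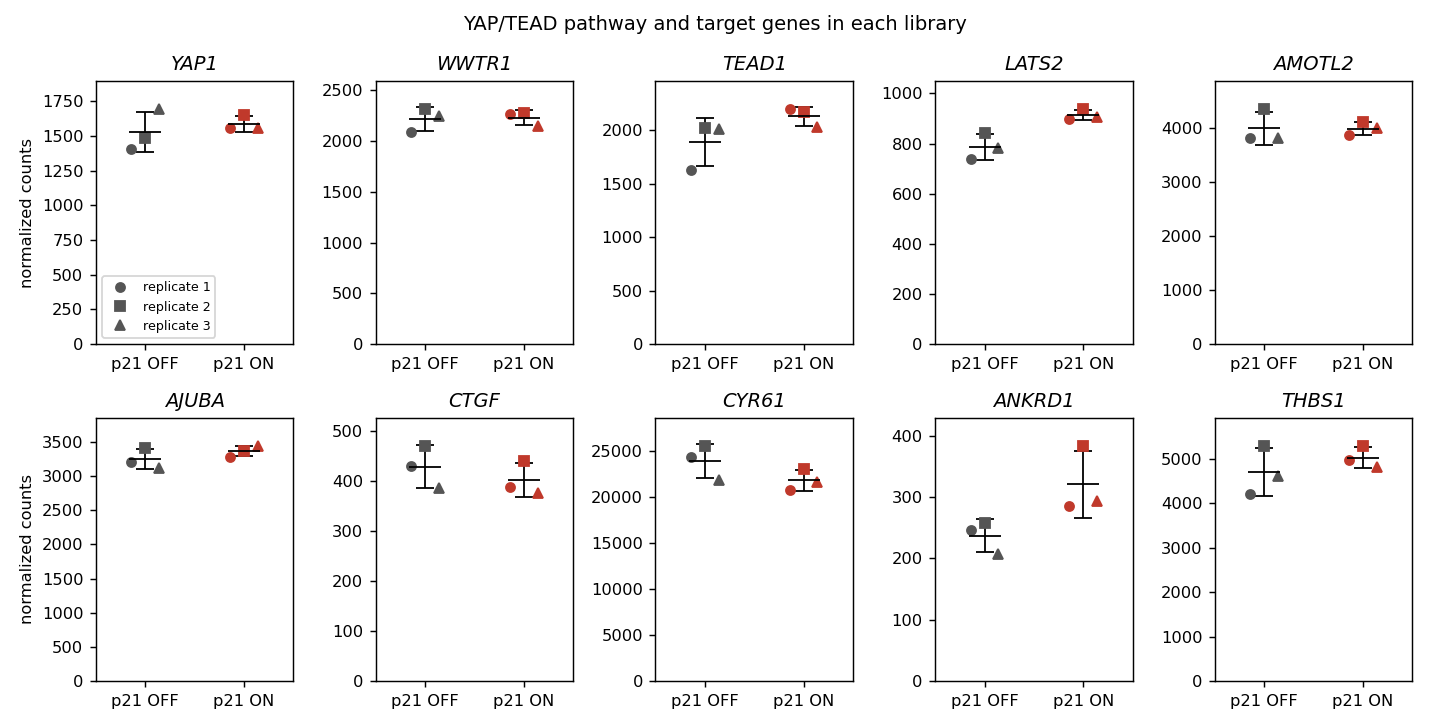
Normalized counts of the 10 genes in each of the 6 libraries, 1 panel per gene, with the vertical axis starting at 0. Marker shape gives the library number and bars the mean and SD of 3 libraries. The groups separate for ANKRD1, LATS2 and TEAD1 and overlap in the other 7 panels.

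The coactivators were closely matched between the groups. YAP1 had 1407, 1485 and 1691 normalized counts in p21 OFF and 1554, 1649 and 1553 in p21 ON, a log2 fold change of 0.06 (95% interval -0.09 to 0.21, limma adjusted p = 0.591). WWTR1 had 2089, 2311 and 2246 in p21 OFF and 2263, 2274 and 2142 in p21 ON, a log2 fold change of 0.0079 (95% interval -0.12 to 0.14, limma adjusted p = 0.941). For both genes the p21 ON values fell inside the p21 OFF range. The log2 fold changes without p21 OFF library 1 were -0.0002 for YAP1 and -0.03 for WWTR1. The log2 ratio of WWTR1 to YAP1 within a library, which does not depend on the scaling of libraries, was 0.54 ± 0.12 (SD, n = 3) in p21 OFF and 0.49 ± 0.05 (SD, n = 3) in p21 ON, a difference of -0.05 (exact permutation p = 0.6, also 0.6 after Benjamini-Hochberg adjustment over 2 ratios).

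CTGF and CYR61 encode secreted matricellular proteins of the CCN family that bind integrins. CTGF (chr6:132269316-132272512, minus strand) had 431, 470.2 and 386 normalized counts in p21 OFF and 389, 439.9 and 375 in p21 ON, a log2 fold change of -0.09 (SE 0.09, 95% interval -0.29 to 0.10, limma adjusted p = 0.481). CYR61 (chr1:86046444-86050272, plus strand) had 24328, 25559 and 21892 in p21 OFF and 20742, 23063 and 21638 in p21 ON, a log2 fold change of -0.13 (SE 0.07, 95% interval -0.28 to 0.01, limma adjusted p = 0.175). In both genes the groups overlapped, and library 2 was the highest of each group. Their log2 ratio within a library was -5.80 ± 0.03 (SD, n = 3) in p21 OFF and -5.76 ± 0.07 (SD, n = 3) in p21 ON, a difference of 0.04 (exact permutation p = 0.5, adjusted 0.6). The 4 tested genes of the CCN family had a median log2 fold change of -0.06 with 0 calls in either direction by limma, edgeR or DESeq2. At an unadjusted p under 0.05 (limma) there were also 0. Over all genes tested, limma called 10.5% higher and 12.7% lower, and 2354 and 2527 of 13255 passed unadjusted. A count of 0 of 4 cannot set the family apart from those shares. The family's most abundant tested gene after CYR61, WISP1 (CCN4), had a log2 fold change of 0.03 (limma adjusted p = 0.8), while WISP2 and WISP3 were too low to test.

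ANKRD1 was also set against the CCN genes within each library. The log2 ratio of ANKRD1 to CTGF was -0.80, -0.86 and -0.89 in p21 OFF and -0.45, -0.20 and -0.35 in p21 ON, with group means 0.52 apart. The ratio of ANKRD1 to CYR61 was -6.65 ± 0.05 (SD, n = 3) in p21 OFF and -6.09 ± 0.16 (SD, n = 3) in p21 ON, 0.56 apart. Neither ratio overlapped between the groups. Both were chosen after the values had been seen, so they are given without a test.

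The remaining targets and regulators did not pass the test. AMOTL2, an angiomotin-family protein that binds YAP, had 3808, 4340.0 and 3815 normalized counts in p21 OFF and 3859, 4095 and 3990.1 in p21 ON, a log2 fold change of 0.00012 (95% interval -0.13 to 0.13, limma adjusted p = 0.999). THBS1, a secreted matrix glycoprotein, had 4217, 5295 and 4625 in p21 OFF and 4971, 5295 and 4829 in p21 ON, a log2 fold change of 0.10 (95% interval -0.05 to 0.25, limma adjusted p = 0.34). AJUBA, a LIM protein that binds LATS kinases, had 3208, 3412 and 3120.0 in p21 OFF and 3286, 3368 and 3442 in p21 ON, a log2 fold change of 0.05 (95% interval -0.07 to 0.18, limma adjusted p = 0.548). In all 3 genes the groups overlapped. Leaving out p21 OFF library 1 gave log2 fold changes of 0.02 for THBS1, -0.03 for AMOTL2 and 0.04 for AJUBA. Over the 8 members that did not pass, the 95% intervals of the fold ranged from 0.82 to 1.27, and a p that misses the threshold does not show that the levels were equal. Exons of THBS1, WWTR1, CTGF and YAP1 overlap those of genes on the opposite strand, and the strand setting of the counting is not given in the sources used here, so reads from such partners may be included. The same holds for CDKN1A, AMOTL1, DCHS1, ASAP1, ARHGEF17, THBS2, THBS3, ACTG1, CNN2 and TAGLN, which were called. Exons of AMOTL2 and AJUBA overlap those of another gene on the same strand.

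The highest and lowest library of each group was counted over the members, but not over all genes, so these counts cannot show that members varied together. Library 2 of p21 OFF had the highest value of its group for 9 of the 10 genes, all but YAP1, and library 2 of p21 ON the highest for 8, all but TEAD1 and AJUBA. Library 1 of p21 OFF had the lowest value for 6 genes: YAP1, WWTR1, TEAD1, AMOTL2, THBS1 and LATS2. Library 3 of p21 OFF had it for 4: CTGF, CYR61, ANKRD1 and AJUBA. In p21 ON, libraries 1 and 3 were each lowest for 5 genes. Over the 6 libraries, which share their depth and scaling across genes, the log2 values of CTGF and CYR61 had a Pearson r of 0.906. Among 11397 genes with a mean of at least 50 normalized counts, those most like CTGF were EZR (ezrin, which links the membrane to actin, r = 0.966), NMI (0.959) and NUP43 (a nuclear pore subunit, 0.958). Among those most like CYR61 were ULBP3 (r = 0.983) and ID3 (an inhibitor of helix-loop-helix factors, 0.979). None of these 5 genes passed the test between the groups.

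Levels were compared between genes only as normalized counts per kb of exon. In p21 OFF, CYR61 was the most abundant member by far, at 6470.0 ± 505 per kb (SD, n = 3), followed by AMOTL2 at 615 ± 47.1, AJUBA at 552 ± 25.5 and THBS1 at 515 ± 59.4. WWTR1 stood at 265 ± 13.7 and YAP1 at 242 ± 23.3 per kb. CTGF at 183 ± 18.1, TEAD1 at 177 ± 21.1, LATS2 at 140 ± 9.25 and ANKRD1 at 133 ± 14.8 per kb were the lowest. The neighbours AJUBA and THBS1, WWTR1 and YAP1, CTGF and TEAD1, and LATS2 and ANKRD1 overlapped between libraries, and the other neighbours did not. In p21 ON the order of the first 6 genes was the same, and it continued with TEAD1 at 199 ± 8.25, ANKRD1 at 179 ± 30.4, CTGF at 172 ± 14.6 and LATS2 at 163 ± 3.74 per kb, each overlapping the next. TEAD2 exceeded TEAD1 in level, with 950.0 ± 21.7 per kb in p21 OFF.

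**Figure D4:**
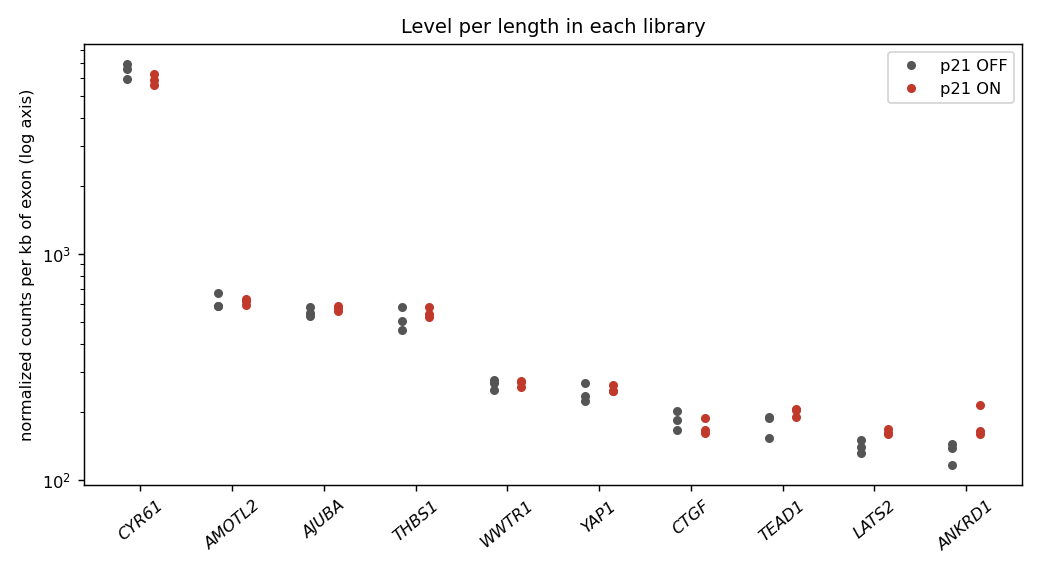
Level of the 10 genes as normalized counts per kb of exon (log axis), for the p21 OFF and p21 ON libraries. The libraries of CYR61 lie between 5609 and 6912 per kb and those of the other 9 genes between 116 and 669.9 per kb, with ANKRD1 lowest in p21 OFF and LATS2 lowest in p21 ON.

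The wider pathway was read from 4 lists. In the Hippo kinase core, 1 of 7 genes was called higher and 0 lower, beside 10.5% and 12.7% of all genes tested. That gene was LATS2, and of the other 6 genes limma, edgeR and DESeq2 called 0, with 1 higher and 0 lower at an unadjusted p under 0.05. The list's median was 0.03, and -0.08 with the trend on gene length taken out. With a library left out the median ranged from -0.02 (p21 OFF library 1 or 3) to 0.07 (p21 ON library 3). LATS1 had 767, 1037 and 1080 normalized counts in p21 OFF and 1101, 983 and 1038 in p21 ON, with overlapping groups (log2 fold change 0.13, limma adjusted p = 0.366). Its direction turned without p21 OFF library 1, to -0.03. Of 10 TEAD factors and cofactors, 8 could be tested and 0 were called by limma, edgeR or DESeq2, with 1 higher and 0 lower at an unadjusted p under 0.05, beside 10.5% and 12.7% of all genes called and 2354 and 2527 of 13255 at the unadjusted threshold. TEAD2, TEAD3 and TEAD4 had log2 fold changes of -0.04, 0.03 and 0.05, and VGLL3 one of 0.34 (SE 0.17, limma adjusted p = 0.143). Of 22 genes of a YAP/TAZ target signature, 4 were called higher and 0 lower, beside 10.5% and 12.7% of all genes tested, with a median of 0.03. They were the members ANKRD1 and LATS2, ASAP1 (a GTPase-activating protein, 0.31, limma adjusted p = 0.0094) and ARHGEF17 (a guanine nucleotide exchange factor, 0.21, limma adjusted p = 0.0454). Of the 17 genes of the signature that are not among the 10 members, 2 were called higher and 0 lower, beside the same shares. With p21 OFF library 1 left out, ASAP1 was at 0.20 (limma adjusted p = 0.00591) and ARHGEF17 at 0.15, no longer called (limma adjusted p = 0.0702). The groups overlapped for ARHGEF17, and its call held in 2 of 6 fits with a library left out, that of ASAP1 in 4 of 6. The count of higher calls was 1 without p21 ON library 1 or 3, and 2 without p21 ON library 2 or with the replicate number as a block. It was 5 without p21 OFF library 2, and 7 with library size alone, under which 2034 of 13255 genes were called higher. The signature's median ranged from 0.01 without p21 ON library 2 to 0.08 without p21 ON library 3. IGFBP3 of that list was called lower under TMM scaling (-0.18, limma adjusted p = 0.0385) and was singled out after its values were seen.

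Upstream regulators of the Hippo kinases had the most calls, with 7 of 21 tested genes higher and 0 lower, beside 10.5% higher and 12.7% lower over all genes tested, and a median log2 fold change of 0.14. Without p21 OFF library 1, 7 were higher and 1 (FRMD6) lower, and the median was 0.06. WTIP, a LIM protein of the AJUBA family, had 172, 179 and 160 normalized counts in p21 OFF and 244, 274 and 248 in p21 ON (log2 fold change 0.58, limma adjusted p = 0.000393). FAT4, a giant protocadherin, had 1061, 1512 and 1359 in p21 OFF and 1913, 1661 and 1828 in p21 ON (0.47, limma adjusted p = 0.00223). AMOTL1, an angiomotin that binds YAP, had 1682, 1997 and 2154 in p21 OFF and 2733, 2486 and 2620 in p21 ON (0.43, limma adjusted p = 0.000727). In these 3 genes the groups did not overlap, and the calls held with each library left out, FAT4 and AMOTL1 at 0.33 each without p21 OFF library 1. WWC1 (a scaffold for LATS kinases), DCHS1 (a ligand of FAT4), INADL (a polarity protein) and TAOK2 (a kinase) were also called, with log2 fold changes of 0.33, 0.30, 0.22 and 0.21. WWC1, DCHS1 and TAOK2 held in 4 of 6 fits with a library left out, and INADL in 2 of 6 and not by DESeq2 (adjusted p = 0.0523). The count was 3 without p21 ON library 1 or 3. Across 12612 genes the log2 fold change had a Spearman correlation of 0.28 with exonic length. The 7 called regulators had 8.83 to 21.3 kb of exon and the 14 uncalled ones 5.89 (AJUBA) to 18.8 kb (PTPN14), so their lengths overlapped. The cause of the calls was not tested. With the trend on length taken out, 5 were higher, 1 (FRMD6) lower and the median 0.03, whereas ANKRD1 and LATS2 were still called.

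**Figure D5:**
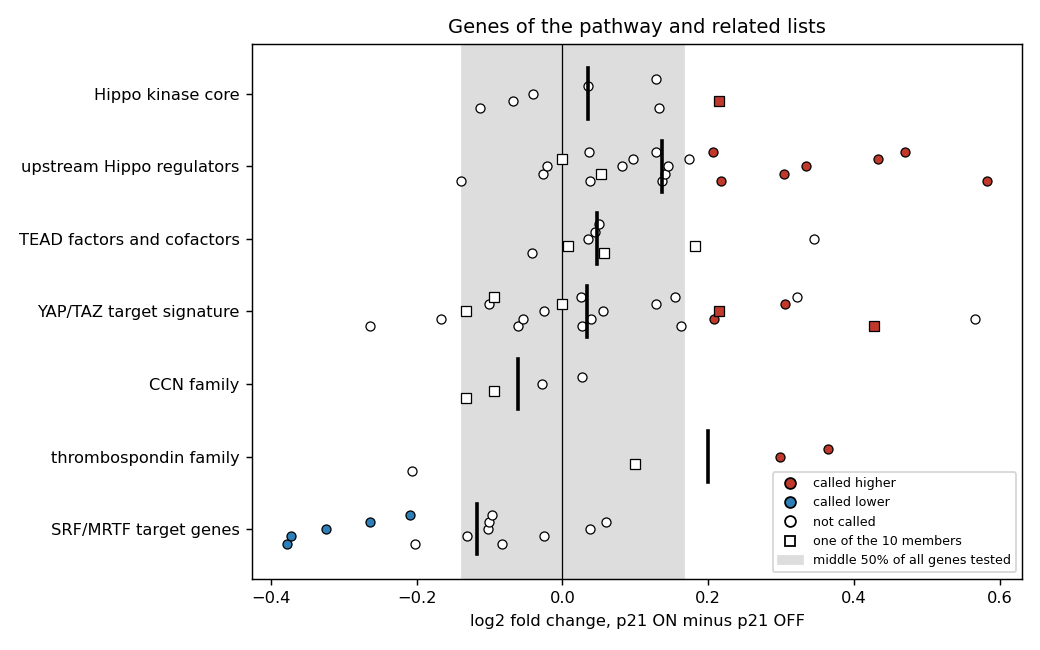
Log2 fold change of each tested gene in 7 lists, with the median of each list as a bar and the middle 50% of all genes tested in grey. The upstream Hippo regulators have a median of 0.14 and the SRF/MRTF target genes one of -0.12.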

How the data were processed

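RNA of 6 SaOS-2 libraries was analysed as deposited. The authors made stranded mRNA libraries (TruSeq), sequenced them single-end in one lane, aligned them to hg19 (STAR), assigned reads to genes (HTSeq) and scaled these counts by DESeq2 size factors. Versions and the strand setting are not given in the sources used here. The deposited signal is a normalized count per gene and library, and all value columns were assigned to a sample. In every library 100% of values were whole multiples of what 1 read is worth (tolerance 0.01), which returned the reads and size factors of 0.796 to 1.35.

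Genes with a mean of at least 10 normalized counts were tested with limma 3.58.1 (trend, no covariates) on log2(normalized count + 1) in R 4.3.3, with Benjamini-Hochberg adjustment and a threshold of 0.05. Exact two-sided permutation tests served single values. Alternatives were edgeR 4.0.16 (quasi-likelihood) and DESeq2 1.42.0 on the recovered reads, TMM scaling, library size alone, pseudocounts of 0.1 and 10, no filter, at least 10 in every library, a replicate block, a loess trend on exonic length taken out, and each library left out. The script was tested on simulated data. Positions and lengths are from GENCODE release 44 on GRCh37, to which 21030 of 23228 rows matched, 2115 by an older symbol. Genes named were CDKN1A, the 10 members, in each list at most 4 called genes per direction by size and relatives of a member, the markers, and the 3 genes most like CTGF and CYR61; INADL, TAOK2, DCHS1, VGLL3, MYL9, SRF, IGFBP3, FRMD6, FJX1 and CCDC80 were added after their values were seen. Some genes of this rule are not reported here. Members and lists were chosen with earlier results of these data known.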

Additional observations from a re-analysis of the deposited data

How the results depend on the processing

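CTGF, CYR61, THBS1 and AJUBA kept their direction and stayed uncalled under all 16 alternatives, and edgeR, DESeq2, both pseudocounts and both filters left the members' calls as they were. ANKRD1 was called under all alternatives but one left-out library (0.29 to 0.51 over the left-out libraries), and LATS2 lost its call under the replicate block and in 5 of 6 such fits (0.17 to 0.26). Members called higher numbered 0 to 2 with a library left out. TEAD1 passed with library size alone (0.23) and ranged from 0.078 to 0.235 with a library left out. Signs near 0 turned: WWTR1 to -0.0019 under TMM scaling and -0.054 with the length trend taken out (-0.034 to 0.039 over left-out libraries), AMOTL2 to -0.0097 under TMM, -0.002 by edgeR and -0.028 without the length trend (-0.032 to 0.063), and YAP1 from -0.0002 to 0.13. Of 55 tested pathway genes 11 were called higher and 0 lower (10.5% and 12.7% of all genes), against 18 higher with library size alone (2034 of 13255 over all genes) and 4 to 12 higher and 0 to 1 lower with a library left out (FRMD6 without p21 OFF library 1, FJX1 without p21 OFF library 3). Lower calls were 1 under TMM scaling, 1 with at least 10 in every library (both IGFBP3) and 3 with the length trend out (CCDC80, FRMD6, IGFBP3). Over all genes 695 to 1486 were called higher and 887 to 1660 lower with a library left out, the fewest without p21 ON library 1. The cause was not tested.

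No pairing by replicate number was seen in the values. Deviations of libraries with the same number correlated at -0.172, -0.165 and -0.123, and those with different numbers at 0.001 to 0.128. Correlations over so few libraries cannot show how the libraries were prepared. With the replicate block 1 member was called, ANKRD1, LATS2 kept 0.21 (limma adjusted p = 0.0626), and 7 pathway genes were called higher.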

Other observations

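Target genes of SRF and its actin-regulated coactivators MRTF, which share several targets with YAP, had lower calls: 5 of 14 tested genes were lower in p21 ON and 0 higher, with a median log2 fold change of -0.12, beside 12.7% lower over all genes tested. ACTB (beta-actin) had 80508, 78034 and 73344 normalized counts in p21 OFF and 58081, 60690.1 and 60319 in p21 ON, without overlap (log2 fold change -0.37, SE 0.07, limma adjusted p = 0.000705). ACTG1 (gamma-actin) had 54473, 58047 and 53618 in p21 OFF and 40746, 43805 and 43314 in p21 ON, also without overlap (-0.38, limma adjusted p = 0.000504). CNN2, TAGLN and MYL9, which bind actin or myosin, had log2 fold changes of -0.26, -0.32 and -0.21. CNN2 was called in all 6 fits with a library left out, TAGLN and MYL9 in 3 of 6 each, and MYL9 did not pass by DESeq2 (adjusted p = 0.0513). SRF itself did not pass, with overlapping groups (log2 fold change -0.10). The number of lower calls was 3 without p21 OFF library 2, p21 ON library 1 or p21 ON library 3, and the median was negative under every scaling. With a library left out the median ranged from -0.10 (p21 ON library 1) to -0.23 (p21 ON library 2).

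Among relatives of THBS1, THBS2 had 170, 196 and 175 normalized counts in p21 OFF and 214, 253 and 230.0 in p21 ON, without overlap (log2 fold change 0.36, limma adjusted p = 0.0167). THBS3 had 295, 258 and 303 in p21 OFF and 324, 344 and 387 in p21 ON, also without overlap (0.30, limma adjusted p = 0.0306). Both thrombospondins lost their calls without p21 ON library 2 or 3, THBS3 also without p21 OFF library 2, and THBS4 did not pass (-0.21, limma adjusted p = 0.471). Of the 9 osteoblast markers 6 could be tested, and IBSP (bone sialoprotein) was the 1 called, lower, beside 12.7% of all genes, at 139, 123 and 126 normalized counts in p21 OFF and 95.5, 99.9 and 102 in p21 ON (-0.38, limma adjusted p = 0.0264), but it did not pass by DESeq2 (adjusted p = 0.0981) and held in 2 of 6 fits with a library left out.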
